A study of Saccharomyces cerevisiae with 6 samples.

Results

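The 8 core histone genes of Saccharomyces cerevisiae were followed on 6 two-colour arrays, as part of a study of what happens to gene expression when frataxin is switched off. They were chosen by name, and all 8 are among the 6174 open reading frames (ORFs) with a value on every array: HTA1 (YDR225W) and HTA2 (YBL003C) for histone H2A, HTB1 (YDR224C) and HTB2 (YBL002W) for H2B, HHT1 (YBR010W) and HHT2 (YNL031C) for H3, and HHF1 (YBR009C) and HHF2 (YNL030W) for H4. YFH1 encodes frataxin, which works in mitochondria in the assembly of iron-sulfur clusters. The strain tetYFH1 (BQS201) is W303-1A in which a tetO7 promoter marked with kanMX4 drives YFH1, so that doxycycline turns the gene off; W303-1A (here W303) is the parent with its own YFH1 promoter. Each array set cells given 2 µg/ml doxycycline for 10 h against untreated cells of the same strain, all grown exponentially on YPG, a rich glycerol medium that yeast can use only by respiration. The titles call the untreated cells 0 h, so the drug and the 10 h cannot be told apart within a strain.

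There were 4 arrays for tetYFH1, forming the dye-swap pairs A (A1 and A2) and B (B1 and B2), and 1 such pair for W303 (W303 array 1 and array 2). All values are log2 ratios, treated over untreated, as deposited; the treated sample carried Cy5 on A1, B1 and W303 array 1, and Cy3 on the others. The mean of a pair was 1 replicate, giving n = 2 for tetYFH1 and n = 1 in W303, which borrows its spread from tetYFH1. Nothing in the labels places the pairs in separate cultures, so the p-values cover only the spread among these arrays and may be technical, and with so few arrays the precision is limited. As a check of the labels, YFH1 read −2.64, −3.29, −5.38 and −5.11 on the tetYFH1 arrays, against −0.08 and −0.05 on the W303 arrays. Array B1 and array B2 differed from the rest: 42.2% and 24.7% of their values were exactly whole log2 numbers, against at most 0.130% on any other array.

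Core histones are the proteins around which DNA is wound: a nucleosome holds H2A, H2B, H3 and H4. Yeast makes their mRNA almost only while DNA is copied, so the level in a growing culture is often read as a measure of the cells in S phase. Each histone is encoded by a pair of genes, and these lie in 4 loci in which an H2A gene stands beside an H2B gene, or an H3 gene beside an H4 gene, read in opposite directions from a shared promoter. The copies HHT1 and HHT2, and likewise HHF1 and HHF2, encode the same protein. Copies share much of their coding sequence and the probe type is not given in the sources used here, so a value is uncertain as to its copy.

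In tetYFH1, 7 of the 8 core histone genes had a mean log2 ratio above 0 after doxycycline, and 0 of 8 passed the test. With limma and Benjamini-Hochberg adjustment over all 6174 ORFs, the threshold of 0.05 was passed by 0.405% of all ORFs, all of them lower. At an unadjusted p under 0.05 the count was also 0 of 8, against 9.46% of all ORFs. The median of the 8 genes was 0.24, against 0.11 over all ORFs, of which 65.8% had a mean above 0. Once each array was centred on its own median, the 8 genes had a median of 0.18 and the same 7 signs above 0. By pair, their median was 0.06 in pair A and 0.40 in pair B, against 0.04 and 0.13 over all ORFs. These are bulk cultures, in which fewer cells that make histone mRNA and less of it per cell cannot be told apart.

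**Figure D1:**
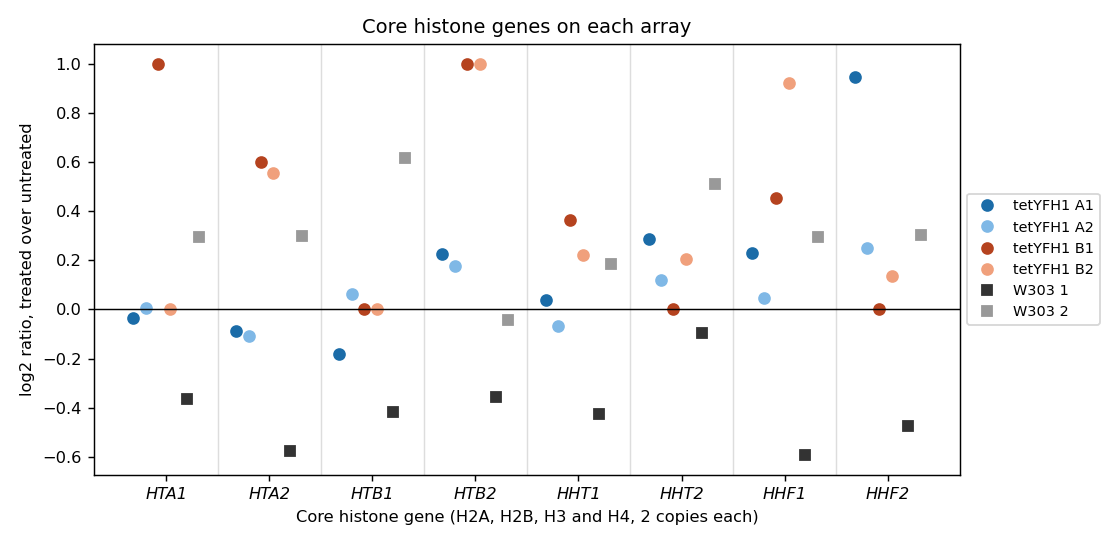
Deposited log2 ratio (treated over untreated) of each core histone gene on each array; circles are the 4 tetYFH1 arrays and squares the 2 W303 arrays. All 8 genes lay below 0 on W303 array 1 and 7 of 8 above 0 on W303 array 2, while HTB2 lay above 0 on all 4 tetYFH1 arrays.

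The H2A genes lay near 0 in pair A and had higher means in pair B. HTA1 read −0.03 on A1, 0.01 on A2, exactly 1 on B1 and exactly 0 on B2 in tetYFH1, against −0.36 and 0.30 in W303. Its tetYFH1 mean of 0.24 ± 0.36 (SD, n = 2) thus rested on the single array B1, and without that array the mean was −0.01. HTA2 read −0.09, −0.11, 0.60 and 0.56 on A1, A2, B1 and B2, against −0.57 and 0.30 in W303. Here both arrays of pair B stood above both arrays of pair A, and neither B value was a whole number. The mean of HTA2 was 0.24 ± 0.48 (SD, n = 2), with a limma adjusted p of 0.790, against 0.772 for HTA1.

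The H2B copies stood apart from each other in tetYFH1. HTB2 read 0.23 on A1, 0.18 on A2 and exactly 1 on both B1 and B2, against −0.36 and −0.04 in W303. All 4 tetYFH1 values were above both W303 values, which was the case for 1 of the 8 genes (HTB2) and for 13.3% of all ORFs. Values above 0 on all 4 tetYFH1 arrays and below 0 on both W303 arrays were found for 1 of 8 genes, again HTB2, and for 3.3% of all ORFs. It had the largest tetYFH1 mean of the 8, 0.60 ± 0.56 (SD, n = 2), or 1.52-fold, with a 95% interval from −0.01 to 1.21 and an adjusted p of 0.525. HTB1 read −0.18 on A1, 0.06 on A2 and exactly 0 on B1 and B2, against −0.42 and 0.62 in W303. With a mean of −0.03 ± 0.04 (SD, n = 2, adjusted p = 0.978), it was the gene nearest to no change and the 1 member with a mean below 0. HTB2 lay above HTB1 on all 4 tetYFH1 arrays, by exactly 1 on B1 and on B2, and with whole numbers for both copies on these arrays the size of that gap is uncertain.

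After HTB1, the H3 genes had the narrowest ranges over the tetYFH1 arrays. HHT1 read 0.04, −0.07, 0.37 and 0.22 on A1, A2, B1 and B2, against −0.42 and 0.19 in W303. HHT2 read 0.29, 0.12, exactly 0 and 0.20 on the same tetYFH1 arrays, against −0.09 and 0.51 in W303. HHT1 was thus higher in pair B than in pair A, and HHT2 was not. Their tetYFH1 means were 0.14 ± 0.22 for HHT1 and 0.15 ± 0.07 for HHT2 (SD, n = 2 each), with adjusted p values of 0.856 and 0.839.

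The H4 genes had the next largest means after HTB2, from different arrays. HHF1 read 0.23, 0.05, 0.46 and 0.92 on A1, A2, B1 and B2, against −0.59 and 0.29 in W303. Its mean was 0.41 ± 0.39 (SD, n = 2), with a 95% interval from −0.14 to 0.97 and an adjusted p of 0.616. It was, with HTB2, 1 of the 2 genes above 0 on all 4 tetYFH1 arrays, as were 11.5% of all ORFs. HHF2 read 0.95, 0.25, exactly 0 and 0.13 on the tetYFH1 arrays, against −0.47 and 0.30 in W303. Its value on A1 was the highest of any core histone gene in pair A, above 97.8% of all ORFs of that array, and its mean was 0.33 ± 0.38 (SD, n = 2, adjusted p = 0.677). The H4 copies changed places between pairs: HHF2 was above HHF1 on A1 and A2, and HHF1 above HHF2 on B1 and B2.

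**Figure D2:**
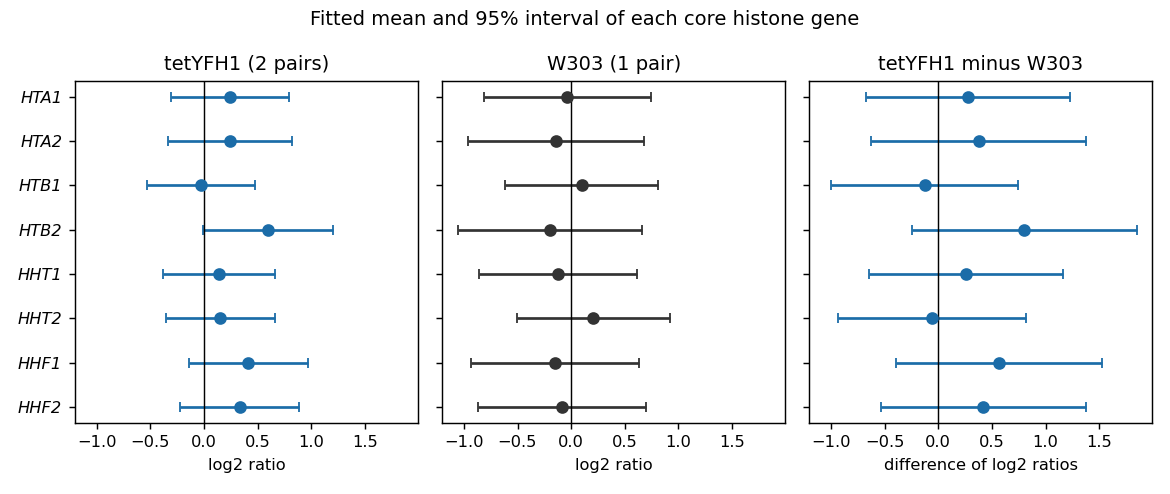
Fitted mean log2 ratio and 95% interval of each core histone gene in tetYFH1, in W303 and for tetYFH1 minus W303 (limma on pair means; W303 takes its spread from tetYFH1). Every interval includes 0, and that of HTB2 in tetYFH1 begins at −0.01.

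The intervals give the uncertainty of each mean under the fit, and not the size of change that these arrays could detect. In tetYFH1 the upper bounds of the 8 genes ran from 1.39-fold for HTB1 to 2.31-fold for HTB2, and the lower bounds from 0.690-fold for HTB1 to 0.996-fold for HTB2. No core histone gene passed under any of the 18 alternative settings tried (1 of which left 3 of the 8 genes in the fit), in either strain or for the difference. Over the settings, 0 to 300 of all ORFs passed in tetYFH1, 0 to 281 in W303 and 0 to 140 for the difference. YFH1 itself did not pass in tetYFH1 under some of them, such as centring (limma adjusted p = 0.150) or robust moderation (0.316). A count of 0 members thus does not show that they were unchanged. The lowest adjusted p of a member was 0.0760, for HTB2 with pair A left out and the remaining arrays entered singly.

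Whole numbers on pair B made up 8 of the 16 core histone values, against 33.4% of all values on these arrays. They fell on 5 of the 8 genes (HTA1, HTB1, HTB2, HHT2 and HHF2), against 52.2% of all ORFs. Both B arrays were above 0 for 4 of 8 genes, as for 25.3% of all ORFs. The other 3, HTA2, HHT1 and HHF1, were above 0 on both B arrays, between 0.37 and 0.60 on B1 and between 0.22 and 0.92 on B2. On pair A the same 3 genes lay between −0.09 and 0.23 on A1 and between −0.11 and 0.05 on A2. With every ORF that held a whole number on B1 or B2 left out of the fit, the median of these 3 genes in tetYFH1 was 0.24, and 0 of 3 passed. Over all 8 genes, 6 had a higher mean in pair B than in pair A, as did 57.3% of all ORFs.

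**Figure D3:**
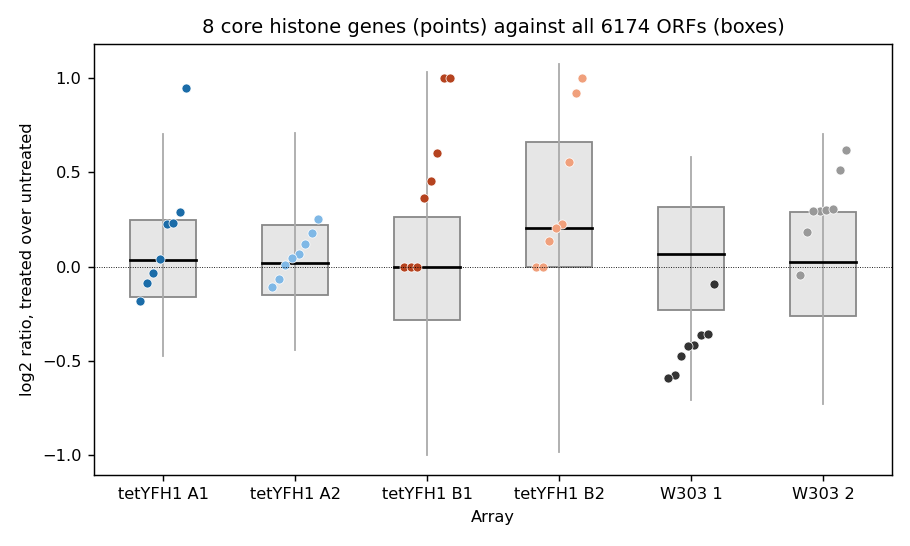
Log2 ratios of the 8 core histone genes (points, spread sideways in order of value) on each array, over the distribution of all 6174 ORFs (line at the median, box from the 25th to the 75th percentile, whiskers from the 5th to the 95th). On W303 array 1 all 8 points lie below the array median of 0.07, and on W303 array 2 7 of 8 lie above the median of 0.02.

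Set against the whole array, the core histone genes stood lowest on W303 array 1. Their median there was −0.42, with a range from −0.59 to −0.09, and 13.8% of all ORFs lay below that median. On W303 array 2 their median was 0.30, with a range from −0.04 to 0.62, and 75.9% of all ORFs lay below it. On the tetYFH1 arrays the medians were 0.13 (A1), 0.06 (A2), 0.41 (B1) and 0.21 (B2). The share of ORFs below those medians was 62.8%, 55.7%, 79.5% and 50.2% in the same order. On B2 the median of all ORFs was itself 0.21, so that the 8 genes were level with the array.

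The W303 arrays therefore gave opposite signs for the same genes. In W303, 7 of the 8 core histone genes were below 0 with treated cells in Cy5 (array 1) and above 0 with treated cells in Cy3 (array 2), a pattern that 22.0% of all ORFs showed. The 8th, HTB2, was below 0 on both, as were 21.9% of all ORFs. The value on array 1 minus that on array 2 was below 0 for all 8 genes, from −1.03 (HTB1) to −0.31 (HTB2), with a median of −0.72 against −0.003 over all ORFs. Written as Cy5 over Cy3, the core histone genes had a negative ratio on array 1 and, apart from HTB2, on array 2 as well. The same difference between dye orientations was above 0 for 6 of 8 genes in pair A (median 0.08), and in pair B it was above 0 for 3, below 0 for 3 and 0 for 2. A dye effect on these genes, which the mean of a pair cancels, was not tested apart from other differences between the W303 arrays. Over all ORFs, the W303 arrays correlated at r = 0.24, against 0.60 for A1 with A2 and 0.40 for B1 with B2; these are correlations across 6174 ORFs, which are not independent.

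**Figure D4:**
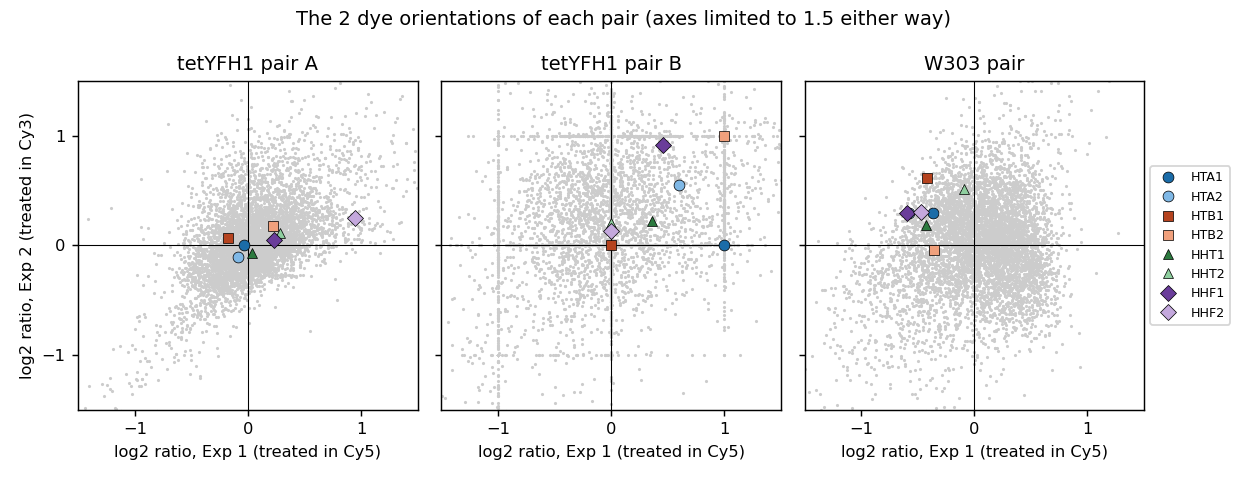
Log2 ratio with the treated sample in Cy5 (Exp 1, horizontal) against Cy3 (Exp 2, vertical) for each pair; small grey points are all ORFs within the axes and coloured symbols the 8 core histone genes. In W303, 7 of the 8 genes sit at the upper left, where the orientations disagree in sign; in pair B several points lie on the lines of whole numbers.

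After averaging the dye orientations, the W303 means of the 8 genes lay between −0.20 (HTB2) and 0.21 (HHT2), with a median of −0.10 against 0.05 over all ORFs. None passed (0 of 8, and 0% of all ORFs; limma adjusted p 0.999 for each), and 0 of 8 had an unadjusted p under 0.05, against 2.62% of all ORFs. The direction of the W303 ratios rests on the labels, and every W303 mean rests on a pair whose arrays disagreed in sign except for HTB2. With array 1 alone the median of the 8 genes was −0.42, and with array 2 alone it was 0.30.

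The difference between the strains asks whether the histone genes responded to doxycycline otherwise where it turns off YFH1. YFH1 itself had a difference of −4.04 and did not pass, so a gene that does not pass here is not shown to be unchanged. The tetYFH1 mean was above the W303 mean for 6 of 8 genes, and 0 of 8 differences passed, as for 0% of all ORFs (6.33% had an unadjusted p under 0.05, against 0 of 8 members). The largest was that of HTB2, 0.80 (SE 0.45, 95% interval −0.25 to 1.85, adjusted p = 0.919), followed by HHF1 with 0.56 (SE 0.41, 95% interval −0.40 to 1.52). HTB1 (−0.13) and HHT2 (−0.06) had differences below 0. The median difference was 0.33, against 0.07 over all ORFs, of which 57.1% had a difference above 0. It depended on single W303 arrays: without array 1 it was −0.05, and without array 2 it was 0.71.

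The 4 loci and the copies were then compared, since neighbours share a promoter and copies share sequence. HTA2-HTB2, known as the H2A-H2B locus that the HIR repressor complex does not hold down, had the highest locus mean in tetYFH1 (0.42) and the lowest in W303 (−0.17). HHT1-HHF1 had 0.28 in tetYFH1 and −0.13 in W303, HHT2-HHF2 0.24 and 0.06, and HTA1-HTB1 0.11 and 0.03. The HTA2-HTB2 mean was 0.80 on B1 and 0.78 on B2, where HTB2 was exactly 1, against 0.07 on A1 and 0.04 on A2. Its rank thus rested on pair B, and on A1 and A2 the highest locus was HHT2-HHF2 (0.62 and 0.18). Neighbours in a locus differed by a median of 0.20 over the 24 comparisons on the 6 arrays, and copies of a histone by 0.29. In both cases the largest difference was 1, on B1 or B2 with whole numbers on both sides. Across the 6 arrays, a gene's correlation with the mean of the other 7 was highest for HHT1 (r = 0.99), HTA2 (0.92) and HHF1 (0.88), the 3 genes without whole numbers, and lowest for HHF2 (0.31). The arrays of a pair share their conditions and the low value on W303 array 1 weighs on each r, which is given as a description.

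The other histone genes were looked at beside the core set. HTZ1 (YOL012C), the H2A.Z variant found near promoters, read 0.23, 0.03, exactly 1 and 0.00 on A1, A2, B1 and B2, against −0.29 and 0.64 in W303. HTZ1 thus shared the sign change between the W303 arrays. CSE4 (YKL049C), the H3 variant of centromeres, read −0.34, −0.11, 0.37 and 0.39, against 0.40 and −0.20 in W303, and changed sign there the other way. HHO1 (YPL127C), the linker histone H1, read 0.32, −0.04, exactly 0 and −0.55, against 0.16 and 0.74 in W303. None of the 3 passed in tetYFH1 (0.405% of all ORFs did), where their means were 0.32, 0.08 and −0.07 for HTZ1, CSE4 and HHO1.

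Genes that control and carry histones had 0 members past the threshold in either direction. This is near the share of all ORFs that passed, 0.405% in tetYFH1 and 0% in W303 and for the difference. The 12 regulators of histone genes include the HIR complex, Spt10, Spt21 and the G1 factors SBF and MBF. Their median was 0.02 in tetYFH1, with 6 of 12 above 0, against 65.8% of all ORFs. HIR2 (YOR038C), a HIR subunit, had the smallest p among them, with 0.42, 0.20, 0.78 and 0.65 on A1, A2, B1 and B2, against −0.13 and −0.25 in W303. All of its tetYFH1 values lay above its W303 values, as for 13.3% of all ORFs. Its mean of 0.51 ± 0.29 (SD, n = 2) had a limma adjusted p of 0.527. HIR3 (YJR140C), of the same complex, followed with a mean of 0.35 ± 0.43 (SD, n = 2). The 14 chaperones and deposition factors, which bring histones to DNA, had a median of 0.14. Of these, 10 of 14 lay above 0, near the 65.8% of all ORFs. The smallest p values among them were those of MSI1 (YBR195C), a subunit of the assembly factor CAF-1, with a mean of 0.39 ± 0.16, and HAT1 (YPL001W), which acetylates newly made H4, with 0.33 ± 0.46 (SD, n = 2 each). MSI1 read 1.01 on B1 and exactly 0 on B2, a spread that the SD of pair means leaves out.

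**Figure D5:**
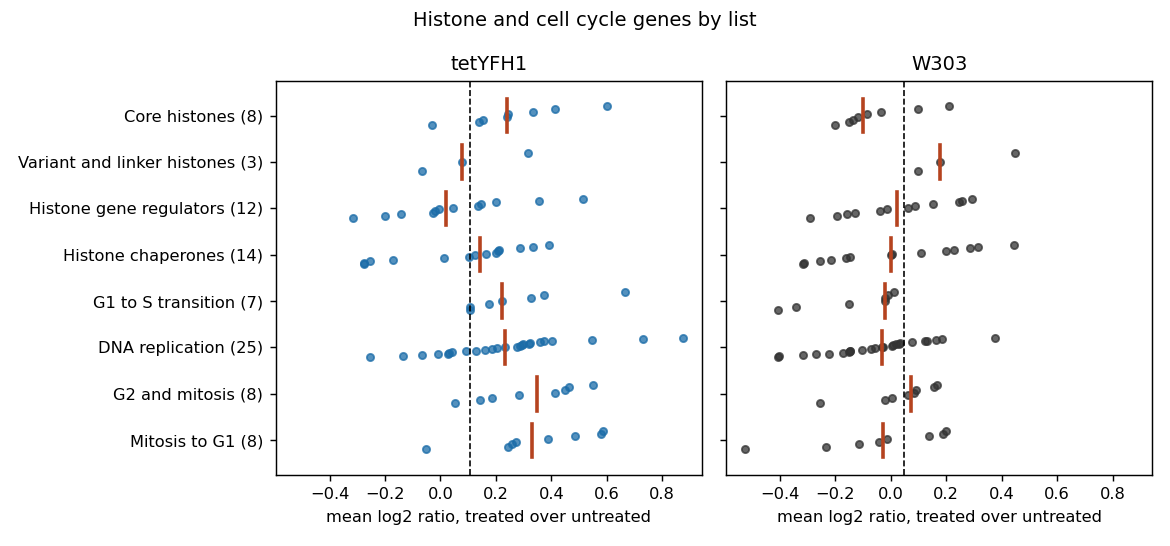
Mean log2 ratio of every gene in 8 lists, in tetYFH1 (left) and W303 (right); each point is a gene, the red bar the list's median and the dashed line the median of all ORFs (0.11 in tetYFH1 and 0.05 in W303). In tetYFH1 the core histones have a median of 0.24 and the genes of DNA replication 0.23, and in W303 −0.10 and −0.03. The means hide differences between arrays: the core histone and replication medians are 0.41 and 0 on B1, but 0.21 and 0.63 on B2.

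Genes that mark the stages of the cell cycle also had 0 members past the threshold, again near the share of all ORFs (0.405% in tetYFH1, 0% in W303 and for the difference). The 25 genes of DNA replication served as markers of the stage in which DNA is copied. Whether their mRNA peaks together with that of the core histones was not tested. Their median was 0.23 in tetYFH1 (pair A 0.03, pair B 0.42) and −0.03 in W303. In tetYFH1, 21 of 25 lay above 0, against 65.8% of all ORFs. Within pair B the replication median was 0 on B1 but 0.63 on B2, where that of all ORFs was 0.21. The core histone median was instead higher on B1 (0.41) than on B2 (0.21). In W303 the replication median was 0.04 on array 1 and −0.05 on array 2, against −0.42 and 0.30 for the core histones. Similar tetYFH1 medians thus do not show that these lists moved together. CTF4 (YPR135W), which ties the replicative helicase to DNA polymerase alpha, read 0.76, 0.96, exactly 1 and 0.20 on A1, A2, B1 and B2, against −0.06 and −0.05 in W303 (mean 0.73 ± 0.19, SD, n = 2, adjusted p = 0.441). RFA2 (YNL312W), a subunit of the single-strand binding protein RPA, had a mean of 0.55 ± 0.16 (SD, n = 2). The SD of pair means leaves out the spread within a pair, and RFA2 read exactly 0 on B1 and 1.32 on B2. The 7 genes of the G1 to S transition had a median of 0.22, all of them above 0. Here too the arrays of pair B differed, with a list median of −0.004 on B1 against 0.68 on B2. The G1 cyclin CLN2 (YPL256C) read 0.05 and 0.15 in pair A and 1.06 and 1.40 in pair B, against −0.61 and −0.20 in W303, and PCL1 (YNL289W), a G1 cyclin of the kinase Pho85, had a mean of 0.37 ± 0.47 (SD, n = 2).

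Most genes of later stages also had tetYFH1 means above 0, as did 65.8% of all ORFs. The 8 genes of G2 and mitosis had a tetYFH1 median of 0.35, with 8 of 8 above 0, and the 8 genes of the passage from mitosis to G1 had 0.33, with 7 of 8. Among them were the mitotic cyclin CLB1 (YGR108W, 0.55 ± 0.36), the factor SWI5 (YDR146C, 0.46 ± 0.19), the daughter cell protein DSE2 (YHR143W, 0.59 ± 0.03) and the chitinase CTS1 (YLR286C, 0.48 ± 0.01; SD, n = 2 each). Their adjusted p values lay between 0.501 and 0.536. The SD of pair means leaves out the spread within a pair. On B1 and B2, CLB1 read 1.27 and 0.34, SWI5 0.06 and 1.14, DSE2 0.68 and 0.45, and CTS1 0.73 and 0.23. The core histone median of 0.24 in tetYFH1 was therefore neither the highest nor the lowest of the stage lists, whose medians ran from 0.22 to 0.35; differences between lists were not tested.

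Genes with a pattern most like that of the core histones were named by their Pearson correlation with the mean of the 8 genes over the 6 arrays, among the 3523 ORFs with a symbol and at least as large an SD over the arrays. That mean was 0.18, 0.06, 0.43 and 0.38 on A1, A2, B1 and B2, against −0.41 and 0.31 in W303. The 5 closest were SNX41, a sorting nexin (r = 0.98), QCR10, a subunit of respiratory complex III (0.97), DIN7, a mitochondrial nuclease (0.96), FSF1, a mitochondrial membrane protein (0.96), and ARF1, a GTPase of vesicle traffic (0.96). All 5 had their lowest value on W303 array 1, from −0.84 (ARF1) to −0.40 (DIN7). The choice by r favours this, since the histone mean was lowest there. The r values, over 6 arrays of which each pair shares its conditions, are given with no test.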

How the data were processed

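The deposited values are log2 ratios, 1 for each ORF on each array, treated over untreated per the labels; indirect labelling with Cy5 and Cy3 started from 8 µg of RNA, per the labels' protocols. How the authors scanned, background-corrected, normalized and filtered is not given in the sources used here. The ratios were used unchanged. ORF names were matched to locus tags of the R64 gene table for names and neighbours only (5675 of 6174 matched, all 8 core histone genes among them). Dye-swap pairs were averaged, and limma 3.58.1 (R 4.3.3) was fitted to all 6174 ORFs with a coefficient for each strain and empirical Bayes moderation (residual degrees of freedom 1, prior 6.64), two-sided, adjusted by Benjamini-Hochberg over all ORFs. The fit was tested on simulated data, in which the changes were larger than any core histone mean, so the power at their size was not tested. Named were YFH1, the 8 members, the variant and linker histones, of other lists the genes that passed or else the 2 with the smallest p in tetYFH1, and the 5 genes of most similar pattern. Members and lists were chosen with earlier results of these data known. Alternatives changed the unit of replication, centring, scaling, moderation, threshold, whole numbers, W303 direction, averaging of copies and the arrays used.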

Additional observations from a re-analysis of the deposited data

Results flagged for a closer look

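Of the 24 genes named by rule, 3 had 1 tetYFH1 array far from the other arrays of that strain. The gap was above Dixon's 95% critical value for 4 samples, which chance exceeds in about 1 of 20 groups of independent values of equal spread. The 4 arrays are dye-swap pairs of unequal spread, so the rate expected here is not known. HTA1 read 1 on B1, a whole number, while its other tetYFH1 values lay between −0.03 and 0.01. PCL1 read 1.40 on B2, against −0.03 to 0.12 on the other arrays, and CLB1 read 1.27 on B1, against 0.22 to 0.36. All 3 values come from pair B, whose arrays have the wider spread (SD over all ORFs 0.744 on B1 and 0.654 on B2, against 0.392 to 0.459 on the others).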

How the results depend on the processing

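Over the settings, 0 to 300 of all ORFs passed in tetYFH1. The count of core histone genes past the threshold was 0 under all 18 alternatives, in both strains and for the difference. Alternatives that changed only the unit of replication, moderation, threshold or W303 arrays left their tetYFH1 median at 0.24 by construction. In the others it stayed above 0, between 0.06 (without pair B) and 0.40 (without pair A). The median of all ORFs was 0.04 and 0.13 in those 2 settings.

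Without single arrays in turn, the W303 median of the 8 genes ranged from −0.42 to 0.30 and the median difference between strains from −0.049 to 0.71; without pair B, arrays entered singly, the median difference was 0.074. Single arrays left out also turned signs. In tetYFH1, HTA1 ranged from −0.0068 to 0.49, HTB1 from −0.090 to 0.032 and HHO1 from −0.20 to 0.071. In W303, HTA1 ranged from −0.36 to 0.30, HTA2 from −0.57 to 0.30, HTB1 from −0.42 to 0.62, HHT1 from −0.42 to 0.19, HHT2 from −0.094 to 0.51, HHF1 from −0.59 to 0.29 and HHF2 from −0.47 to 0.30. For the difference, HTA1 ranged from −0.053 to 0.61, HTA2 from −0.058 to 0.81, HTB1 from −0.64 to 0.39, HHT1 from −0.045 to 0.56 and HHT2 from −0.36 to 0.25.

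Without pair B, the tetYFH1 values of HTA1 (−0.014), HTA2 (−0.097), HHT1 (−0.013), CSE4 (−0.22) and HHO1 (0.14) changed sign, and after centring and scaling that of CSE4 (−0.041). With copies averaged, HTB1 took the sign of the H2B mean (tetYFH1 0.29, W303 −0.051, difference 0.34), HHT1 read 0.045 in W303 and HHT2 had a difference of 0.10. Turning the W303 ratios changes W303 signs by construction (HTA1 0.034, HTA2 0.14, HTB1 −0.099, HTB2 0.20, HHT1 0.12, HHT2 −0.21, HHF1 0.15, HHF2 0.085, YFH1 0.064), and the differences of HTB1 (0.070) and HHT2 (0.36) then lay above 0.

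Of all ORFs, 25 passed in tetYFH1, 0 in W303 and 0 for the difference. With each array as a replicate these counts were 86, 2 and 8, with the Exp number as a replicate block as well 59, 0 and 4, and with the pair as a random block 99, 3 and 10. Without pair A they were 106, 1 and 100, and without pair B 300, 281 and 140. In both of these settings the arrays were entered singly, so the unit of replication changed as well as the pairs used. In tetYFH1 the count was 0 after centring, with or without scaling, 39 at an adjusted p under 0.1, and 3 where whole numbers on either B array removed an ORF; with W303 turned, 3 differences passed. Without single arrays it ranged from 0 to 25 in tetYFH1 and from 0 to 3 in W303. Apart from values left out by construction, the cause of these changes was not tested. The Exp number is the dye orientation and pairs no samples across strains.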
